A study of Mus musculus with 2 samples.

Results

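The cytosolic ribosomal protein genes, which encode the proteins of the cytosolic ribosome, were described across the cell classes of mouse retinas inflamed with lipopolysaccharide (LPS) and between a control and an Atg5 knockout library. Members were all symbols made of Rpl or Rps, a number and at most 1 further letter, with the stalk and laminin receptor genes Rplp0, Rplp1, Rplp2 and Rpsa added. Symbols with under 30 UMIs (unique molecular identifiers, each marking 1 captured mRNA molecule) over both libraries were left out. Of 32285 features, 80 symbols matched and 78 were members, 47 of the large and 31 of the small subunit. Rpl10l with 0 UMIs and Rpl39l with 8 UMIs fell outside the minimum, and Rpl3l with 196 UMIs and Rps27l with 12253 UMIs were the lowest members inside it. Rps4l was not analysed here.

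Both groups were floxed Atg5 mice (Atg5fl/fl) given 0.5 µg LPS per eye into the vitreous, with 6 retinas pooled into 1 library per group. The knockout group also carried GLAST-CreER, a tamoxifen-driven Cre that acts in Müller glia, the main glia of the retina, and was the group that received 4-hydroxy-tamoxifen. Genotype, Cre and drug therefore cannot be told apart, and the sexes and the delay after injection are not given in the sources used here. With 1 library per group no value has a replicate check, no test between libraries was possible, and every interval is a 95% interval for counting error only.

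A ribosome joins a small subunit, which reads the mRNA, to a large subunit, which forms the peptide bond. Nearly all of its proteins are made in equal numbers, and their mRNAs are among the most abundant of any growing cell. Most of these mRNAs begin with a C followed by a run of pyrimidines, the terminal oligopyrimidine (TOP) motif, through which the kinase complex mTORC1 sets their translation. In the retina, photoreceptors devote much of their mRNA to phototransduction, and neutrophils are short-lived cells that enter an inflamed eye with little new ribosome synthesis.

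Start-site windows of members were read from RefSeq (GRCm38.p6), which held a start for 58 of the 78 members. Each window below runs from 10 bases before the annotated start to 20 bases from it, 5′ to 3′, and capitals mark the uninterrupted pyrimidine run that opens with C at the start itself. The first 6 show the TOP pattern in members described below, and the last 4 are members that varied widely between classes and whose annotated start lacks it. Of the first 6, Rps27 (3.99-fold), Rps18 (3.86-fold) and Rpl14 (3.09-fold) also varied widely between classes in their share of member UMIs.
Rps6 (chr4:86857348-86857377, minus strand): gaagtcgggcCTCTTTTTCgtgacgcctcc
Rpl28 (chr7:4792955-4792984, plus strand): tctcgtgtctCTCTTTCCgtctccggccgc
Rplp2 (chr7:141447641-141447670, plus strand): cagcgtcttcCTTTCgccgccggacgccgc
Rps27 (chr3:90213629-90213658, minus strand): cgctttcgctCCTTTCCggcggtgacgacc
Rps18 (chr17:33955646-33955675, minus strand): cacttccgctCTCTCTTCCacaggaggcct
Rpl14 (chr9:120571507-120571536, plus strand): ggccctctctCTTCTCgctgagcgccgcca
Rps9 (chr7:3704031-3704060, plus strand): cttgtctctctttgtctcgggcctgagttc
Rps2 (chr17:24720053-24720082, plus strand): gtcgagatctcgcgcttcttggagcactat
Rplp0 (chr5:115559457-115559486, plus strand): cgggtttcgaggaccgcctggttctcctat
Rps27l, first of 2 annotated starts (chr9:66946076-66946105, plus strand): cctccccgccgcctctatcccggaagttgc

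The pattern, a C at the first base followed by at least 4 pyrimidines (C or T) on the transcribed strand, was met by 13 of the 58 members (22.4%) and by 813 of 27025 genes of the table (3.01%). It was met by 2 of 14 listed elongation factor and other TOP genes and by 0 of 69 mitochondrial ribosomal protein genes. A start placed a few bases away from the one the cell uses loses the match, so the absence of capitals says only that these letters are not at the annotated base. The 13 members with the pattern had a median knockout over control ratio of 1.16 in Müller glia-like cells, and the 45 without it had 1.17. Their shares of member UMIs ranged 1.6-fold between classes at the median with the pattern and 1.84-fold without it.

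Depth came to 43669961 UMIs over 8690 barcodes for control retinas, and to 50676223 over 5229 for knockout retinas. The study's stated filter kept 8274 and 4662 cells, with median depths of 1396 and 6808 UMIs. Clusters were named anew from marker genes, 8 clusters stayed unnamed (30.66% of control and 26.77% of knockout cells), and 10 classes had at least 30 cells in each library. None of the members was among the 2000 variable genes that placed the cells in clusters, also when they were left in the choice. The libraries shared 15 barcodes. Atg5 itself was at 20.4 CPM (UMIs of the gene per 1000000 UMIs, interval 17.1 to 24.2) in control and 18.5 CPM (16.1 to 21.1) in knockout Müller glia-like cells, but 3′ counts need not read a deleted exon, so this does not check the label. The markers were also summed per class, but they had named the clusters, so finding them there does not check the names. All 11 Müller glia markers were found in Müller glia-like cells (10117 and 6652 CPM in sum). All 10 rod and all 10 neutrophil markers were found in their classes.

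Of all UMIs of kept cells, members took 5.35% among control and 6.15% among knockout cells. In summed counts the same 3 classes were highest in both libraries and the neutrophils lowest. Monocyte and macrophage-like cells were highest, with 11.4% in control and 12.1% in knockout cells. Endothelial-like cells followed with 10.9% and 11.97%, and Müller glia-like cells with 8.28% (8.26 to 8.30) and 9.60% (9.58 to 9.62). In these summed counts the 3 classes stood apart from every neuron class, none of which passed 4.49%. In horizontal-like cells members took 3.84% and 4.09% of UMIs, in the bipolar-like class 3.71% and 4.26%, among cones 3.62% and 4.33%, in the ganglion-like class 3.36% and 4.10%, and among amacrine-like cells 3.13% and 3.55%. The counting intervals of these 5 classes are narrow, but the quartile ranges of their single cells overlapped. In the control library the quartile range of Müller glia-like cells (3.3% to 9.593%) overlapped those of all 5 as well. In the knockout library it lay above them (7.009% to 11.55%). Müller cluster g5, described below, took 4.82% in summed control counts. Neutrophil-like cells were lowest, at 1.86% (1.84 to 1.88) and 1.98% (1.96 to 2.00). Among rod-like cells members took 1.93% of control and 4.49% of knockout UMIs, and no other class differed as much between libraries. As medians over cells the order changed at both ends, with control rods (1.61%) below control neutrophils (1.72%) and knockout endothelial-like cells (12.35%) above knockout monocyte and macrophage-like cells (11.9%). The 10 neutrophil markers, led by the calcium-binding alarmin S100a9, summed to 114074 CPM in control and 151422 CPM in knockout neutrophil-like cells, and their part in the low share was not tested. Among 19 control T and NK-like cells members took 23.1% of UMIs, but the knockout library held only 2 such cells.

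**Figure D1:**
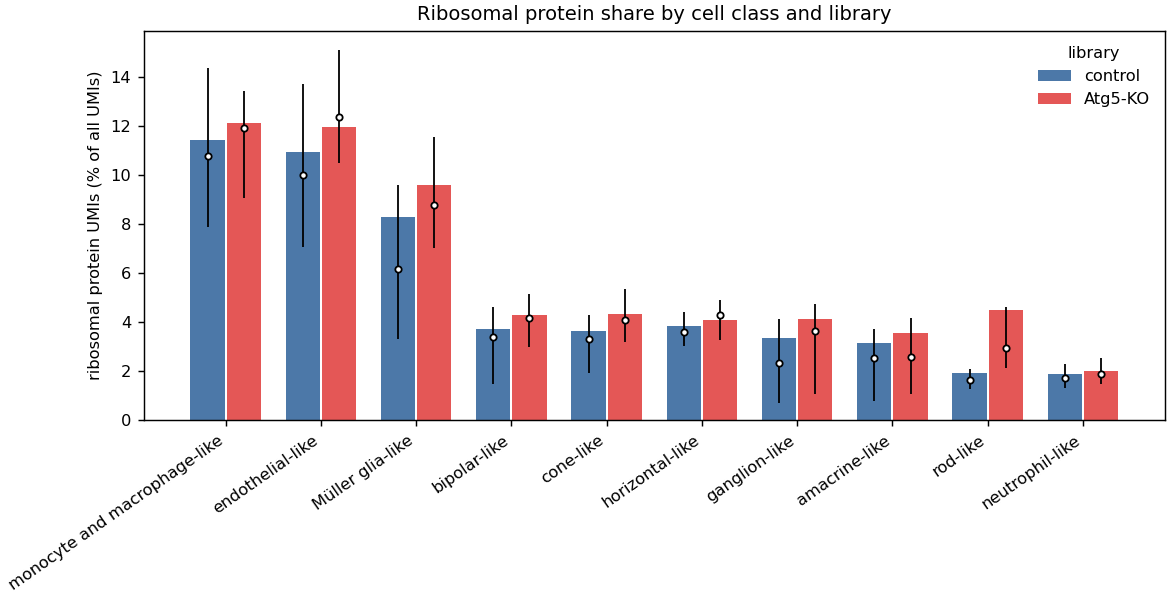
Share of UMIs that were ribosomal protein UMIs (percent, y axis) in 10 cell classes (x axis), control in blue and Atg5-KO in red; bars are the share in the summed counts, open points the median over single cells and lines the quartile range over single cells. Monocyte and macrophage, endothelial and Müller glia-like bars lie between 8.28% and 12.1%, and the rod-like bars differ most between libraries (1.93% and 4.49%).

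With at least 1.5-fold over the mean of the other classes in both libraries as the bar, 75 of 77 measured members were higher in endothelial-like cells, where 17.5% of 13649 genes were higher and 40% lower, and 75 in monocyte and macrophage-like cells, where 13.7% were higher and 51.1% lower. Rpl3 fell short in both classes, Rps26 in endothelial-like and Rplp1 in monocyte and macrophage-like cells. In Müller glia-like cells 55 members were higher and 0 lower, against 12.8% of all genes higher and 38.6% lower. The median member stood 0.75 (log2) above the other classes in Müller glia-like cells of either library, whereas the median gene stood at -0.39 in control and -0.54 in knockout cells. In neutrophil-like cells 74 members (96.1%) were lower, where 75.2% of all genes were lower too, and 1 was higher, against 9.02% of all genes. The members' median was -1.85 in control and -2.01 in knockout neutrophils against -1.67 and -2.07 for all genes, so that the medians lay close together although the share of members past the bar was larger. Amacrine-like cells had 62 members lower, where 24.5% of genes were, and ganglion-like cells 42, where 29% were. The count of lower members was 27 in bipolar-like cells (35.1%, against 27.5% of all genes), 30 in cone-like cells (39%, against 32.7%), 29 in horizontal-like cells (37.7%, against 33.3%) and 31 in rod-like cells (40.3%, against 33.2%). These shares lie only somewhat above the background, but the members' medians lay lower than those of all genes. The median log2 contrast in control and knockout cells was -0.52 and -0.53 in bipolar-like (all genes -0.10 and -0.0089), -0.55 and -0.54 in cone-like (-0.12 and -0.15), -0.44 and -0.60 in horizontal-like (-0.29 and -0.19) and -1.56 and -0.54 in rod-like cells (-0.12 and -0.11). In these 6 neuron classes 0 members were higher, where the share of all genes that were higher was 18.6% in amacrine-like, 16.9% in ganglion-like, 15.9% in bipolar-like, 15.6% in cone-like, 12.6% in horizontal-like and 23.2% in rod-like cells.

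Among the members with the highest levels over all kept cells were Rps29, a zinc-binding protein of the small subunit, at 1777 CPM, Rpl41, the smallest large-subunit protein, at 1661 CPM, the stalk protein gene Rplp1 at 1468 CPM and Rpl13 at 1234 CPM. Counts of 3′ libraries are per molecule and need no correction for length, but reads shared with the many processed pseudogenes of this family, and the 25 members that overlap another annotated gene (5 on the same strand), make levels between members uncertain. The small subunit gave 39.8% to 44.8% of member UMIs in 9 of the classes and 48.65% and 48.47% in control and knockout neutrophil-like cells.

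The make-up of the member UMIs, meaning each gene's share of the sum, was described next, because it is free of how much of the cell's mRNA the family takes. For the 77 members with enough UMIs the share ranged 1.73-fold between the lowest and highest class at the median, and 1.57-fold with neutrophils left out. Neutrophil-like cells were at an end of the range for 50 of the 77, lowest for 37 and highest for 13. Departures from the mean of the other classes repeated between libraries. Pearson's r over the 77 members ran from 0.846 in rods to 0.979 in Müller glia-like cells, as a description over genes that share a library. The most even members were Rpl28 (1.23-fold), Rpl27a (1.26-fold) and the stalk protein gene Rplp2 (1.29-fold). Rpl28, for instance, held 1.31% of member UMIs in control Müller glia-like, 1.46% in amacrine-like and 1.18% in neutrophil-like cells.

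**Figure D2:**
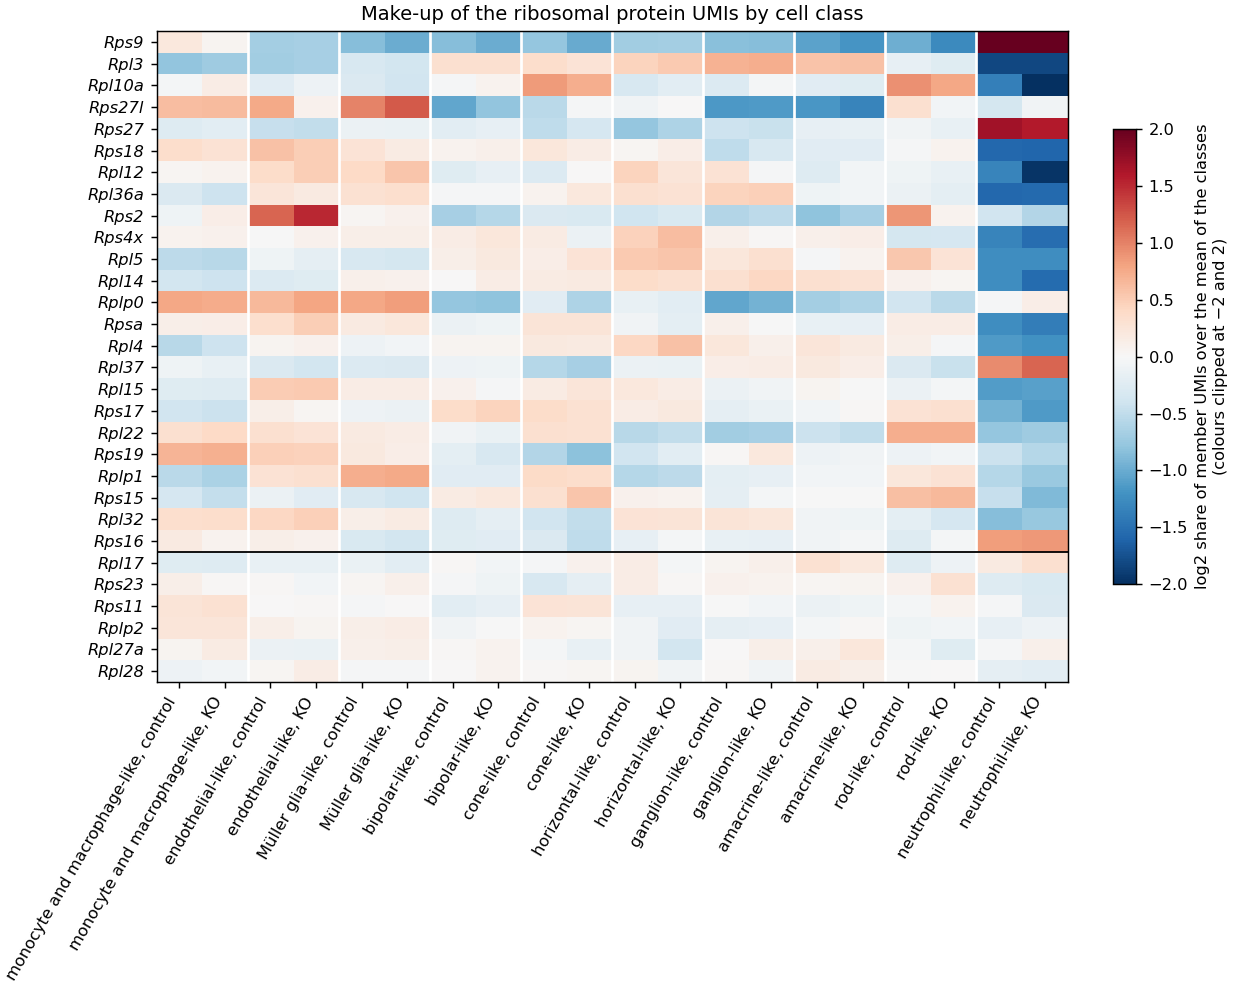
Each cell gives the log2 of a gene's share of member UMIs over its mean share in the other classes of that library. Colours are clipped at -2 and 2. Rows are the 24 widest-ranging members (above the line) and the 6 narrowest (below it), and columns are classes by library. The neutrophil columns differ most, with Rps9, Rps27, Rpl37 and Rps16 in red and Rpl3, Rps18 and Rpl36a in blue, and the paired control and knockout columns look alike.

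Rps9, a small-subunit protein that helps set decoding accuracy, ranged most widely, 9.04-fold. In neutrophil-like cells it was at 1387 CPM in control and 1709 CPM in knockout cells, 7.47% and 8.63% of all member UMIs there. In monocyte and macrophage-like cells it was at 2317 and 2362 CPM, 2.03% and 1.95% of member UMIs, and in amacrine-like cells at 282 and 312 CPM, 0.902% and 0.880%. Of the 77 measured members it was the only one at least 1.5-fold higher in neutrophil-like cells than in the other classes. It stood 1.92-fold higher in control and 2.11-fold in knockout cells. Rpl3l, described below, had too few UMIs to be among the 77. Rps27, a zinc-finger protein of the small subunit, also took a large share in neutrophils, 5.08% and 4.91% of member UMIs, against 1.80% and 1.81% in Müller glia-like cells. By level it was higher in Müller glia-like cells, at 1491 and 1734 CPM, than in neutrophils, at 942 and 971 CPM. Rpl37 took 3.34% and 3.65% there and was, with Rps27, the other member not at least 1.5-fold lower in neutrophils in both libraries. At the other end stood Rpl3, which lies beside the peptidyl transferase centre, with 82.6 and 84.3 CPM in neutrophil-like cells and 650 and 711 CPM in amacrine-like cells. Rpl10a was at 60.3 and 36.8 CPM in neutrophils, Rps18 at 82.6 and 89.6 CPM, Rpl12, at the base of the stalk, at 66.3 and 46.7 CPM, Rpl36a at 38.05 and 41.4 CPM and Rps4x, encoded on the X chromosome, at 84.8 and 79.7 CPM. Each of these 6 stood, in either library, between 0.0754 and 0.142 of its mean level in the other classes. The genes that took a large part in neutrophils came from both subunits, and of the start windows above, that of Rps27 has the TOP pattern and that of Rps9 lacks it.

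Outside the neutrophils, Rps27l, Rps2 and Rplp0 ranged most. Rps27l, a paralog of Rps27 and a known target of p53, was at 267 CPM (1778 UMIs) in control and 336 CPM (3981 UMIs) in knockout Müller glia-like cells. It was at 309 and 215 CPM in endothelial-like and 296 and 301 CPM in monocyte and macrophage-like cells, but at 26.3 and 25.7 CPM in amacrine-like, 28.6 and 33.5 CPM in ganglion-like and 34.0 and 43.9 CPM in bipolar-like cells. Per 100 UMIs of Rps27 there were 17.9 and 19.4 UMIs of Rps27l in Müller glia-like cells, 4.84 and 4.06 in amacrine-like and 2.83 and 3.31 in neutrophil-like cells. Cdkn1a, a cell cycle inhibitor and p53 target that is no member and was chosen after its values were seen, was higher in knockout than in control cells of Müller clusters g1, g2, g6, g8 and g9, with intervals apart in each (in g1, 410 against 235 CPM). The intervals of Rps27l overlapped in each of these clusters, which does not show that its levels were equal. In knockout against control cells it was at 338 against 321 CPM in g1, 290 against 235 CPM in g9 and 426.8 against 431.5 CPM in g6. Whether the levels of Cdkn1a and Rps27l are linked was not tested.

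Rps2, which lines the mRNA entry of the small subunit, was at 3574 CPM in control and 4263 CPM in knockout endothelial-like cells, 3.26% and 3.56% of member UMIs, and at 5.37 and 5.77 times the mean of the other classes. No other of the 77 members stood as far above the other classes there. Rpl15 was next in control cells with 3.35 times, and stood at 3.12 times in knockout cells. Rps2 was at 1385 and 1512 CPM in Müller glia-like, 306 and 346 CPM in amacrine-like and 237 and 202 CPM in neutrophil-like cells. It took 2.79% of member UMIs in control rods and 1.56% in knockout rods, where its level was 538 and 702 CPM.

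Of the stalk proteins, which recruit the translation factors, Rplp0 forms the base and Rplp1 and Rplp2 the flexible arms. Rplp0 was at 1230 and 1514 CPM in Müller glia-like cells, 1515 and 1825 CPM in endothelial-like and 1686 and 1806 CPM in monocyte and macrophage-like cells. It was at 160 and 213 CPM in ganglion-like and 188 and 228 CPM in amacrine-like cells, so that its share of member UMIs was 1.49% and 1.58% in Müller glia-like and 0.478% and 0.519% in ganglion-like cells. Rplp1 was the leading member in Müller glia-like cells, at 2752 and 3396 CPM, 3.32% and 3.54% of member UMIs, but took 1.516% and 1.4975% in monocyte and macrophage-like cells, at 1730 and 1812 CPM. Rplp2 followed the sum of the family, with 1064 and 1221 CPM in Müller glia-like and 363 and 418 CPM in amacrine-like cells. The 3 stalk genes therefore did not hold 1 ratio to each other across classes. Rpsa, the small-subunit protein also known as the laminin receptor, was at 1227 and 1431 CPM in Müller glia-like, 1772 and 2097 CPM in endothelial-like and 110 and 104 CPM in neutrophil-like cells.

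Rpl3l, the paralog that replaces Rpl3 in striated muscle, was found mainly in leukocytes. It was at 46.2 CPM (85 UMIs) in control and 35.2 CPM (46 UMIs) in knockout neutrophil-like cells, and at 7.38 and 10.4 CPM in monocyte and macrophage-like cells. In every other class with at least 30 cells it was at most 1.29 CPM in either library. A UMI of it was found in 25.6% (19.9 to 31.9) of control and 19.5% (13.7 to 26.4) of knockout neutrophil-like cells, at median depths of 7496 and 7303 UMIs, against 0.192% and 0.231% of amacrine-like cells at 6246 and 5010 UMIs. Per 100 UMIs of Rpl3 there were 55.9 and 41.8 of Rpl3l in neutrophils and 0.732 and 0.961 in monocyte and macrophage-like cells. The gene lies on the plus strand of chromosome 17 (24727820 to 24736143), and the selenoprotein gene Msrb1 begins 498 bases past its end on the same strand. Per 100 UMIs of Msrb1 there were 2.38 and 2.23 of Rpl3l in neutrophil-like cells, 1.22 and 1.78 in monocyte and macrophage-like cells and 5.19 and 3.23 in bipolar-like cells, the last from 4 UMIs each. The part of Msrb1 in these counts was not tested.

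Of the other paralog pairs, Rpl22 took the largest part of its pair in endothelial-like cells, with 33.2 and 42.3 UMIs of the paralog Rpl22l1 per 100 of Rpl22. There were 327 and 335 per 100 in ganglion-like, 283 and 297 in amacrine-like and 233 and 217 in horizontal-like cells, so the paralog led in these 3 neuron classes and in bipolar-like cells (127 and 146). In Müller glia-like cells there were 81.8 and 89.8. Rpl36al stood between 62.9 and 143 per 100 UMIs of Rpl36a in all 10 classes. Rpl7l1 stood at 7.53 and 8.28 per 100 of Rpl7 in Müller glia-like cells and at 25.2 and 16.7 in neutrophils.

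The comparison of the knockout with the control library asked how far the family differed in each class of at least 100 cells per library. The summed level was higher in the knockout library in all 5, by a ratio of 1.16 (1.155 to 1.163) in Müller glia-like, 1.13 (1.127 to 1.141) in amacrine-like, 1.15 (1.142 to 1.155) in bipolar-like, 1.07 (1.050 to 1.085) in neutrophil-like and 2.33 (2.300 to 2.355) in rod-like cells. In the 5 smaller classes it ran from 1.06 in monocyte and macrophage-like to 1.22 in ganglion-like cells. The ratio in Müller glia-like cells, where the Cre acts, lay near those of amacrine and bipolar-like cells, and these differences between classes were not tested. In Müller glia-like cells the ratio was 1.15 for the small and 1.165 for the large subunit.

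In Müller glia-like cells 0 of 77 members passed 1.5-fold in either direction, where 3.53% of 10678 genes were higher and 16.9% lower by that much. All 77 measured members had ratios above 1, from 1.01 to 1.30, where 34.3% of all genes had ratios above 1. The members' median log2 ratio was 0.22 against -0.15 for all genes. Another scaling (TMM) moved the log2 ratio of every gene up by 0.14 here, by 0.13 in neutrophils and by 0.15 in rods, and leaves the offset of members from other genes as it is. Rpl12 had the largest ratio, with 885 CPM in control and 1147 CPM in knockout cells (ratio 1.30, 1.257 to 1.336), followed by Rpl19 with 1338 and 1689 CPM (1.26, 1.231 to 1.295). Rpl10a at 543 and 548 CPM (1.01, 0.968 to 1.050) and Rpl35 at 735 and 746 CPM (1.02, 0.980 to 1.051) had the smallest, and their intervals included 1. Of the other named members, Rplp0 had a ratio of 1.23, Rplp1 1.23, Rplp2 1.15, Rpsa 1.17, Rps6, the substrate of the S6 kinases, 1.22, and Rpl13a, an arm of the interferon-driven block of inflammatory mRNA translation, 1.25. Rpl5 and Rpl11, which with 5S rRNA hold the p53 ligase Mdm2 in check, had 1.11 and 1.18. Rps19, often mutated in Diamond-Blackfan anemia, had 1.14, Rpl38 had 1.14, Rps25 had 1.23 and Rpl41 had 1.13.

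**Figure D3:**
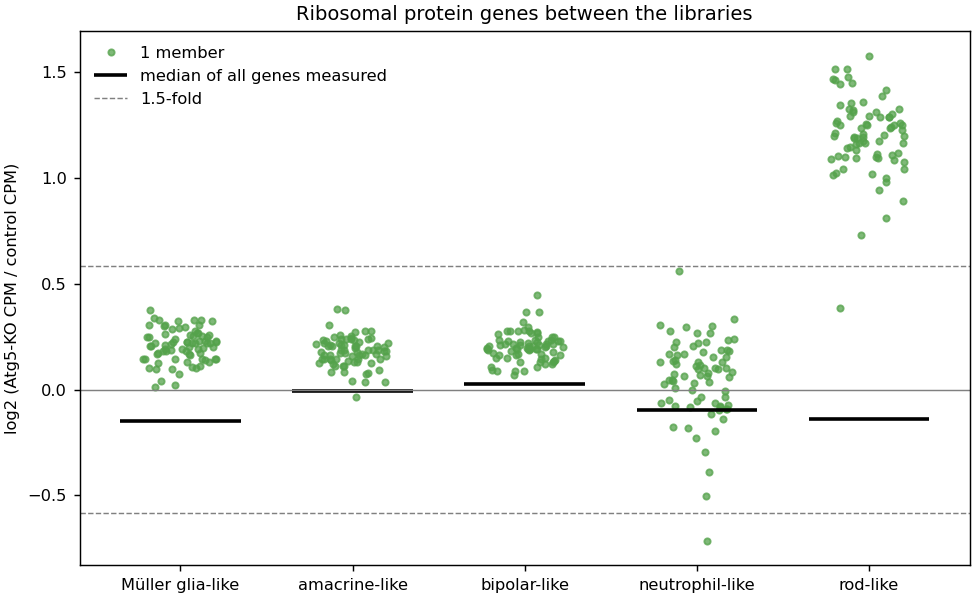
Each point is the log2 ratio of Atg5-KO over control CPM of 1 member (y axis) in 5 cell classes (x axis), for members with at least 100 UMIs over both libraries; black bars are medians of all genes measured and dashed lines mark 1.5-fold. All points lie above 0 in Müller glia, bipolar and rod-like cells, where 34.3%, 55% and 39.6% of all genes measured did. In rod-like cells 76 of 77 lie past 1.5-fold, and Rpl10a lies past it below 0 in neutrophil-like cells.

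The Müller glia-like value depended on which clusters each library held. Cluster g5 made up 35.04% of control Müller glia-like cells (137 cells) and 0.855% of knockout cells (5 cells), and cluster g1 11.0% of control (43 cells) and 48.2% of knockout cells (282 cells). Cluster g5 had the lowest member share of the 6 Müller clusters, 4.82% in control and 5.46% in knockout cells, with 2057 CPM of the acute phase gene Lcn2 and 3786 CPM of glutamine synthetase (Glul) in the control. Cluster g1 was at 10.4% in control and 9.74% in knockout cells, with 20734 and 17104 CPM of Lcn2 and 1106 and 904 CPM of Glul. Cluster g2, with most Lcn2 (49469 and 40771 CPM), held 10.4% in both libraries and a ratio of 1.00 (0.996 to 1.007). Within g1 the ratio was 0.938 (0.931 to 0.944), within g6 0.990, within g8 1.06 and within g9 1.14. Without g5 the ratio over the class was 1.01, and the 77 members again included 0 past 1.5-fold. Of the 41 named members measured in this class, 18 had ratios below 1 without g5 and 23 at or above 1, whereas all 41 were above 1 with it. Some of the 41 were named for their ratios. The shares of all genes past 1.5-fold or below 1 without g5 are not given here. By cluster, the median log2 ratio of members (of all genes) was -0.094 (-0.046) in g1 and 0.0031 (-0.014) in g2. It was 0.030 (0.050) in g6, 0.043 (-0.020) in g8 and 0.19 (0.0017) in g9. Unnamed cluster g7, led by Chil1, C3 and Lcn2, held 9.05% in control and 8.49% in knockout cells, a ratio of 0.939, and with it added to the class the ratio was 1.09. Rod markers summed to 1905 CPM in control and 691 CPM in knockout Müller glia-like cells (10 of 10 found in both), neutrophil markers to 244 and 80.0 CPM (8 of 10) and erythroid markers to 6.16 and 1373 CPM, and their part in the ratio was not tested.

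**Figure D4:**
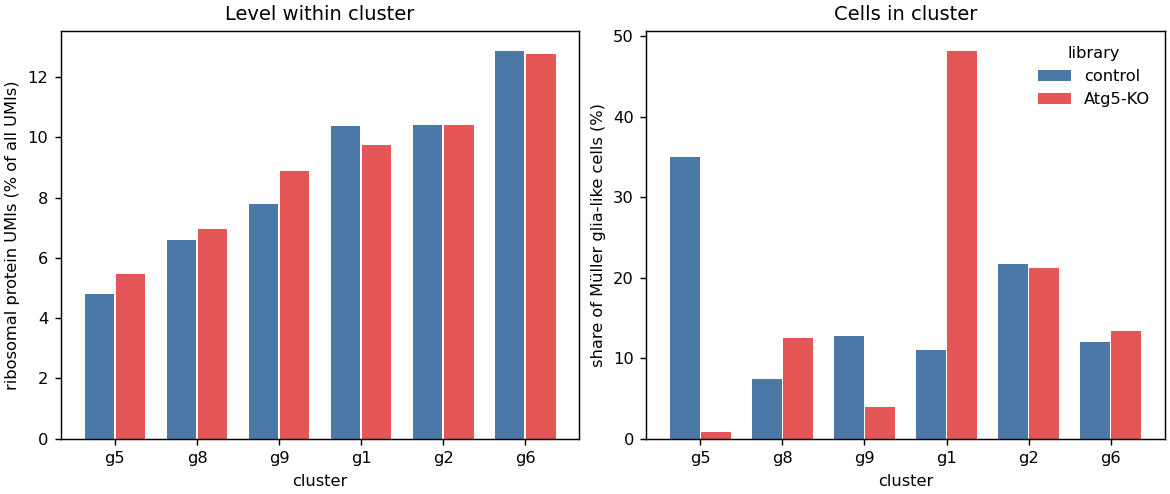
Left, ribosomal protein share of UMIs (percent) in the 6 clusters of Müller glia-like cells; right, share of each library's Müller glia-like cells (percent) in each cluster; control in blue, Atg5-KO in red. Cluster g5, lowest on the left, holds 35.04% of control and 0.855% of knockout cells, and cluster g1 11.0% and 48.2%.

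Rplp0 and Rps2 differed between these clusters by more than the family's sum, which was 4.82%, 10.4% and 10.4% of UMIs in control cells of g5, g1 and g2. Rplp0 was at 367 CPM (339 to 397) in control cells of g5 and at 1569 CPM (1489 to 1653) and 1768 CPM (1715 to 1823) in those of g1 and g2. Rps2 was at 448, 1594 and 1995 CPM in the same 3 clusters. Rps27l, at 162, 321 and 334 CPM, differed about as the sum did, and Rps27 was nearer to even, at 1346, 1661 and 1673 CPM. These clusters also differed in the nuclear RNA Malat1, which took 4.81% of UMIs in control g5, 4.47% in g1 and 3.38% in g2, and its part in the member share was not tested.

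In amacrine-like cells 0 of 77 members passed 1.5-fold, where 2.50% of genes were higher and 2.37% lower. The ratio was largest for Rpl12 (224 and 292 CPM, 1.30) and Rpl13a (379 and 491 CPM, 1.30), and smallest for Rps27l (26.3 and 25.7 CPM, 0.976, 0.783 to 1.219) and Rpl10a (215 and 220 CPM, 1.03). In bipolar-like cells 0 of 77 passed it, where 2.54% of genes were higher and 2.87% lower. Rpl14 (315 and 429 CPM, 1.36) and Rps27l (34.0 and 43.9 CPM, 1.29) led there, and Rps7 (595 and 624 CPM, 1.05) was lowest. Rpl12 was thus among the 2 largest and Rpl10a among the 2 smallest ratios in both Müller glia-like and amacrine-like cells.

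In neutrophil-like cells, leukocytes recruited from the blood, 0 members were higher and 1 lower by 1.5-fold, where 3.61% of 3186 genes were higher and 14.6% lower. That member was Rpl10a, with 60.3 CPM (111 UMIs) in control and 36.8 CPM (48 UMIs) in knockout cells, a ratio of 0.610 (0.425 to 0.862). Rpl12 was next at 66.3 and 46.7 CPM (0.705, 0.510 to 0.966). Rps13 at 230 and 339 CPM (1.48, 1.289 to 1.690) and Rpl17 at 261 and 329 CPM (1.26, 1.104 to 1.438) had the largest ratios. Rps9 had a ratio of 1.23 (1.164 to 1.305). The members spread more here (SD of log2 ratios 0.19) than in Müller glia-like cells (0.077), at far fewer UMIs per gene. Rod markers summed to 2855 CPM in control and 670 CPM in knockout neutrophil-like cells, and their part was not tested.

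Rod-like cells differed most. Of 77 members 76 were at least 1.5-fold higher in the knockout library and 0 lower, where 12.5% of 7840 genes were higher and 16.1% lower. The members' median log2 ratio was 1.20 against -0.14 for all genes. Rps27a, made as a fusion with ubiquitin, was at 465 CPM in control and 1389 CPM in knockout rods (2.99, 2.783 to 3.206), and Rps24 at 526 and 1505 CPM (2.86, 2.675 to 3.062). The smallest ratios were those of Rps2 at 538 and 702 CPM (1.31, 1.193 to 1.425), the one member short of 1.5-fold, and Rpl31 at 97.7 and 162 CPM (1.66, 1.367 to 2.009).

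Depth, mitochondrial RNA and erythroid markers differed along with it. Rods were shallow in both libraries, with median depths of 1115 and 1017 UMIs, and 7.33% of control but 25.9% of knockout rods held at least 2000 UMIs. Member shares were 1.98% and 3.14% in rods under 1000 UMIs (ratio 1.58, 1.541 to 1.629), 1.60% and 3.13% between 1000 and 2000 (1.95) and 2.87% and 5.51% from 2000 upward (1.92). Over all rods under 2000 UMIs the ratio was 1.83 and 73 members were past 1.5-fold. The mitochondrial share was 3.79% in control and 5.96% in knockout rods (ratio 1.57), Malat1 took 2.40% and 2.96%, and rhodopsin was at 5767 and 8131 CPM. The 5 erythroid markers, hemoglobin genes and Alas2 with Hbb-bs at 7135 CPM in front, summed to 59.1 CPM in control and 12961 CPM in knockout rods. In rods with no erythroid marker UMI (3362 control and 286 knockout cells) the ratio was 2.32 (2.284 to 2.354) and 76 members were past 1.5-fold, as over all rods. For rods under 2000 UMIs and rods with no erythroid marker UMI, the share of all genes past 1.5-fold is not given here. Of the other marker lists, Müller glia genes were at 309.3 and 308.9 CPM in rods, neutrophil genes at 814 and 563 CPM, and fibroblast genes at 2.36 CPM and 0. The parts of depth and mitochondrial RNA in the difference were not tested beyond these values.

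The 2 main rod clusters differed alike between the libraries, with 1.77% and 4.30% in n0 (ratio 2.43) and 1.80% and 4.27% in n3 (2.37). Cluster n20, led by the chemokine genes Ccl12 and Ccl5, went the other way with 8.23% and 6.67% (0.810, 0.783 to 0.839), from 78 control and 53 knockout cells. Without n20 the ratio over rods was 2.42. Unnamed cluster n1, led by crystallin genes with rod genes behind them, had 2.30% and 4.87% (2.12) in 2012 control and 473 knockout cells. Of the other neuron classes the ganglion-like cells had the largest ratio, 1.22.

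**Figure D5:**
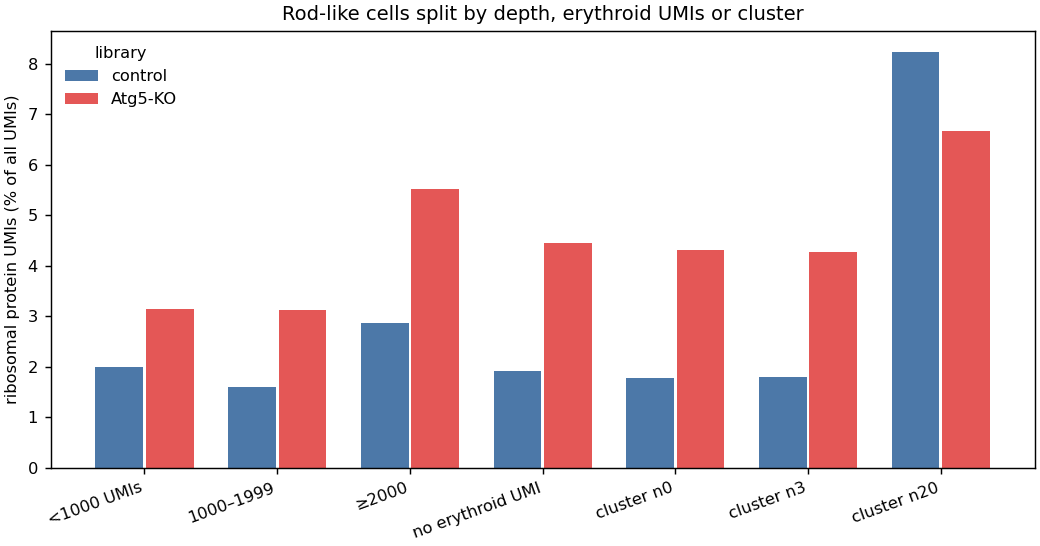
Ribosomal protein share of UMIs (percent, y axis) in rod-like cells of the control (blue) and Atg5-KO (red) library, split by UMIs per cell, for cells with no erythroid marker UMI, and by cluster. The knockout bar is higher in every split except cluster n20, where control stands at 8.23% and knockout at 6.67%.

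Genes around the family were listed as well. The Müller glia-like values of all lists include cluster g5, which held 35.04% of control and 0.855% of knockout cells of the class. The family's own ratio depended on that cluster, and list values without it are not given here. The 8 listed ribosomal protein genes outside the naming rule had, in Müller glia-like cells, a summed ratio of 1.18 and 0 of 8 past 1.5-fold. They include Fau, made as a ubiquitin-like fusion, at 1242 and 1465 CPM (1.18) and Rps3a1 at 1035 and 1241 CPM (1.20), with Rps27rt highest at 41.5 and 54.5 CPM (1.32). Elongation factors and other TOP genes (20 measured, 0 past 1.5-fold) summed to a ratio of 1.17, with the main elongation factor Eef1a1 at 2406 and 2719 CPM (1.13) and Tpt1, a classic TOP mRNA, at 2399 and 3112 CPM (1.30), while Nap1l1 was at 231 and 226 CPM (0.980). Initiation factors (30, 0 past it) summed to 1.20, with Eif1 at 1517 and 2037 CPM (1.34), Eif6, which keeps subunits apart, at 131 and 190 CPM (1.45) and Eif4g3 at 165 and 144 CPM (0.872).

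Ribosome assembly genes (42, 0 past 1.5-fold) summed to 1.15, with nucleolin (Ncl) at 449 and 538 CPM (1.20), the release factor Sbds at 88.5 and 130 CPM (1.47) and Dkc1 at 30.4 and 24.1 CPM (0.795). For the lists that follow, 3.53% of all genes in Müller glia-like cells were higher and 16.9% lower by 1.5-fold. Of 18 RNA polymerase I genes 1 was lower, Taf1c at 8.57 and 5.49 CPM (0.641, 0.442 to 0.931). Of 31 genes of mTORC1 and TOP mRNA control 5 were lower and 0 higher. These were Tsc1 at 23.1 and 11.6 CPM (0.503), Ddit4l (0.582), Sesn1 at 40.4 and 21.2 CPM (0.524), Sesn3 at 113 and 74.8 CPM (0.659) and Deptor at 74.5 and 41.0 CPM (0.550), each known to restrain mTORC1, and 5 of 31 is near the share of all genes that were lower. The list's summed ratio was 0.994. Other members went against a single direction: the activator Rheb was at 193 and 261 CPM (1.35), whereas the core subunit Rptor was at 51.5 and 38.7 CPM (0.750, 0.651 to 0.865) and the inhibitory subunit Akt1s1 at 46.6 and 55.8 CPM (1.20, 1.045 to 1.375). Of 17 quality control genes 1 was higher, Ascc3, which splits collided ribosomes, at 118 and 181 CPM (1.53, 1.412 to 1.665), and of 78 mitochondrial ribosomal protein genes 1 was higher, Mrps6 at 143 and 219 CPM (1.53, 1.416 to 1.645). In the rods, where 12.5% of all genes were higher and 16.1% lower by 1.5-fold, 6 of 7 outside-rule ribosomal protein genes were higher and 0 lower, as were 12 of 20 elongation factor and TOP genes with 0 lower. Of the other lists there, 27 of 69 mitochondrial ribosomal protein genes were higher and 2 lower, 9 of 30 initiation factors higher and 2 lower, 4 of 16 RNA polymerase I genes higher and 1 lower, 5 of 25 mTORC1 genes higher and 3 lower, 2 of 34 assembly genes higher and 5 lower, and 1 of 15 quality control genes higher and 2 lower. The higher genes of the RNA polymerase I list were Polr2f, Polr2k, Polr2l and Znrd1, and the lower was Polr1a.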

How the data were processed

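Dissociated cells of inflamed mouse retinas were profiled by 3′ single-cell RNA sequencing, 1 library per group. The authors deposited UMI counts per gene and cell barcode, not normalized, per the file headers; Cell Ranger 6.0.0, Seurat 5.2.1 and the mm10 build are named in the submitters' processing notes. All values here were computed from these counts.

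A cell was kept if it had 500 or more genes and mitochondrial UMIs made up less than 25% of its total. For 40 repeated symbols the first row was used. Cells were clustered in Seurat 5.3.0 (R 4.3.3) on 2000 variable genes and 11 principal components at resolution 1, with seed 1, and clusters were named from 19 marker lists. Names are rebuilt, so differences from the study may come from them. Scrublet called 0 cells in either library, so the caller did not work and no cell was removed; leaving out the 548 and 174 highest scores was an alternative.

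UMIs were summed per class and library and given as CPM with exact Poisson intervals, ratios with exact conditional binomial intervals and shares of cells with Clopper-Pearson intervals (Python 3.11.15, scipy 1.17.1). Intervals cover counting error only. Levels needed 30 cells per library, ratios 100 cells per library and, per gene, 100 UMIs over both; make-up needed 1000 UMIs per member. Log2 ratios used a prior count of 0.5 and class contrasts a pseudocount of 1 CPM. A member was counted at 1.5-fold or more. Scripts were tested on simulated data. TMM factors came from edgeR 4.0.16, with no test.

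Named members were the 5 with the highest CPM, the 2 largest and 2 smallest ratios of each class, the 10 widest and 3 narrowest ranges of share, and the stalk, paralog and other genes listed by function; of each other list, the 2 with the highest CPM and the largest and smallest ratio. The members and lists were chosen with earlier results of these data known, and the alternatives on shared barcodes, erythroid markers, rods under 2000 UMIs and single clusters after seeing the data. Some named genes are not reported here.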

Additional observations from a re-analysis of the deposited data

Results flagged for a closer look

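For 4 members the knockout over control ratio was below 1 with its whole counting interval in neutrophil-like cells and above 1 in rod-like cells, where the ratio was largest. In neutrophil-like cells these ratios were 0.61 for Rpl10a, 0.705 for Rpl12, 0.853 for Rps2 and 0.882 for Rps24. All 77 measured members had ratios above 1 in rod-like cells, so every member met that part of the rule by direction. In neutrophil-like cells 52 of 77 members and 38.9% of all genes measured had ratios above 1. The share of all genes that meet the whole rule is not given here. With 1 library per group the difference between the classes was not tested.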

How the results depend on the processing

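No paired analysis was possible because each group has 1 library. Of 157 recomputed main values, 93 kept within their counting interval, 64 moved and 0 reversed. Of the 93, 29 come from clustering with the members left among the candidate variable genes, where 0 members were chosen, so that run repeats the clustering used and could move nothing. The ratio of the summed level ran from 1.015 to 1.341 in Müller glia-like, 1.10 to 1.167 in amacrine-like, 1.103 to 1.258 in bipolar-like, 1.037 to 1.17 in neutrophil-like and 1.829 to 2.579 in rod-like cells. At resolution 0.5 these 5 ratios were 1.15, 1.16, 1.14, 1.04 and 2.25. Under 10% mitochondrial UMIs they were 1.17 in amacrine-like, 1.10 in bipolar-like, 1.05 in neutrophil-like and 2.45 in rod-like cells. With TMM scaling they were 1.28 in Müller glia-like, 1.12 in bipolar-like, 1.17 in neutrophil-like and 2.58 in rod-like cells. As means of per-cell CPM they were 1.34 in Müller glia-like, 1.10 in amacrine-like, 1.26 in bipolar-like and 2.04 in rod-like cells, and 3 members (Rplp0, Rpl18 and Rpl19) passed 1.5-fold in Müller glia-like cells in place of 0. The share of all genes past 1.5-fold in these means is not given here, so the count of 3 has no background beside it. Added after seeing the data, the Müller glia-like ratio was 1.16 without shared barcodes, 1.01 without g5 and 1.09 with g7, the neutrophil-like ratio 1.05 without g13, and the rod-like ratio 1.83 under 2000 UMIs and 2.42 without n20. Without mitochondrial UMIs in the denominator the rod-like ratio was 2.38.

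As means over cells, the member share in control and knockout cells was 7.12% and 9.54% in Müller glia-like, 2.49% and 2.74% in amacrine-like, 3.20% and 4.03% in bipolar-like, 3.28% and 4.23% in cone-like, 2.52% and 3.34% in ganglion-like, 3.48% and 4.21% in horizontal-like, 11.2% and 11.4% in monocyte and macrophage-like, 1.97% and 2.13% in neutrophil-like and 1.81% and 3.69% in rod-like cells, and 12.5% in knockout endothelial-like cells. In these means control rods stood below control neutrophils, and knockout endothelial-like above monocyte and macrophage-like cells, unlike in summed counts. Without mitochondrial UMIs it was, in the same order of classes, 8.53% and 9.90%, 3.22% and 3.66%, 3.92% and 4.50%, 3.88% and 4.68%, 3.53% and 4.30%, 4.14% and 4.47%, 11.7% and 12.4%, 1.88% and 2.01%, and 2.01% and 4.78%, and 11.2% and 12.2% in endothelial-like cells. For values that moved and are not explained by the setting itself, the cause was not tested. A single library per group limits every comparison, and shallow rods and few neutrophil UMIs limit single members there.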

Other observations

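In pericyte-like cells, which fell under the minimum for levels with 42 control and 18 knockout cells, members took 8.27% and 11.7% of UMIs at median depths of 1357 and 1469 UMIs.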
